A study of Mus musculus with 6 samples.

Results

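Expressed genes whose symbol is Gm followed only by a number were examined in primary mouse neurons after transcriptional activation of Kcna1. The group held 231 of the 50508 symbols in the files. Members were selected on these measurements, since a symbol entered when the mean of its 6 library values was at least 5, and Gm42418, a single gene model with 15.3 to 20.2% of each library, was left out. Of 21917 such numbered symbols, 3646 were above 0 in at least 1 library and 3415 of those stayed under the limit. The neurons came from newborn C57Bl/6J mice, from hippocampus by the sample labels and from cortex by the study's methods. They were infected with lentivirus 1 day after plating, and the methods name more than one time for the RNA harvest, with library preparation at 10 days in vitro. In this lentivirus the Ef1alpha promoter drove dCas9-VP160, a Cas9 without nuclease activity fused to a transcriptional activator, and both groups carried the activator. The 3 control libraries had a guide against bacterial lacZ (sgLacZ, Ctrl-dCas9A) and the 3 others a guide against the Kcna1 promoter (sgKcna1, Kcna1-dCas9A). Nothing in the labels says that the 3 libraries of a group came from separate animals, so that p-values measure the spread between these libraries.

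Numbered Gm symbols are provisional names given to mouse gene models that have no name based on function. They cover processed pseudogenes, which are intron-less copies of messenger RNAs, long noncoding RNAs (lncRNAs), small RNAs and single transcripts observed within the introns or flanks of other genes. Numbers were given out over time, and in these data the high numbers were mostly models that RefSeq does not list. Polyadenylated RNA was measured here with a kit that reads the 3′ ends of transcripts, and whether the deposited values were divided by gene length is not stated in the sources used here.

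Of the 231 members, 107 matched a symbol of the RefSeq annotation of GRCm38.p6, a further 17 matched an older synonym, and 107 matched none. RefSeq called 77 of the direct matches pseudogenes, 18 lncRNAs and 12 protein coding. A window around the transcription start was in the RefSeq promoter table for 26 members. The windows of 3 lncRNA members with higher values in every Kcna1-dCas9A library are shown as examples, chosen after their values were seen, of members with an annotated start. Of the 26 members, 9 were higher in every Kcna1-dCas9A library, as were 36.8% of all members and 14.4% of genes with a mean of at least 5. Gm30382 had a Ctrl-dCas9A mean of 1 and so had to be higher to be included. Each window shown runs 5′ to 3′ on the strand of the gene from 250 bases before to 50 bases after the start (GRCm38.p6). Capitals mark a CCAAT box (CCAAT) or a GC box (GGGCGG) on either strand, and some of these letters also occur by chance.
Gm30382, chr3:149445550-149445849, minus strand: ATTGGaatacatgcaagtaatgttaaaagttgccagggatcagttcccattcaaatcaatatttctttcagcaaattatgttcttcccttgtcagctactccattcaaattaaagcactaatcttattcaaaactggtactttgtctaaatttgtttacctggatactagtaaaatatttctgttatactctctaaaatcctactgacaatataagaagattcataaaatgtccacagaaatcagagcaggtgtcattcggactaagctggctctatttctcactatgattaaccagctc
Gm15834, chr1:58504865-58505164, plus strand: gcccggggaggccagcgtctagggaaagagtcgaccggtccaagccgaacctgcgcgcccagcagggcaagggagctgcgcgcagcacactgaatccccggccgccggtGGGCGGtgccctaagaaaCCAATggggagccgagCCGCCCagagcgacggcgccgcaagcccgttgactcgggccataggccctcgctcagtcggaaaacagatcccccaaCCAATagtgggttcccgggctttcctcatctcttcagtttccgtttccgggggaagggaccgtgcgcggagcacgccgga
Gm5914, chr8:105637425-105637724, minus strand: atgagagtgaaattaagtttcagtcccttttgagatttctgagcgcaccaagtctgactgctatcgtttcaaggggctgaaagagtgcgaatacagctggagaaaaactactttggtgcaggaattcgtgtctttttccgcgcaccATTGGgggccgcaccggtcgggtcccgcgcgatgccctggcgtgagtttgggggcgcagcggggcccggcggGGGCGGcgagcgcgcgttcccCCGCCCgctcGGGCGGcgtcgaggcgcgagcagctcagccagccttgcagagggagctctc

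The 3 windows differed in composition. That of Gm30382 held 1 CpG dinucleotide and 1 CCAAT box, whereas those of Gm15834 and Gm5914 held 31 and 30 CpG dinucleotides against a median of 7 over 27025 promoters of the same length. Over all of those promoters, 37.9% held a CCAAT box and 35.9% a GC box. Among the 26 members with a window, 10 held the CCAAT box and 9 the GC box. A TATA box (TATAAA) was found in 2 of the 26 and in 14.2% of all promoters, and the cyclic AMP response element (TGACGTCA) in 2 of the 26 and in 1.88% of all promoters.

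Values were whole numbers that added up to between 999047 and 999717 in each library, and are called normalised values here. The depth in reads is unknown. Kcna1 read 16 in each Ctrl-dCas9A library against 68, 47 and 65 after activation, and its log2 fold change was 1.83 ± 0.16 (SE, n = 3 per group). It passed the threshold, a Benjamini-Hochberg adjusted p under 0.05 over the 19504 genes above 0 in at least 1 library (limma on log2(value + 1), adjusted p = 0.034), but not when any 1 library other than Ctrl-dCas9A replicate 3 was left out (limma, adjusted p from 0.11 to 0.14). The summed values of 9 neuron markers were 4216 to 4958 in Ctrl-dCas9A and 5341 to 6741 in Kcna1-dCas9A. Tubb3 alone rose by more than this sum, from 1862, 1752 and 2605 to 3855, 3221 and 4591. The 9 markers differed in sign, 6 of them below 0. Log2 fold changes were 0.92 for Tubb3 and 0.61 for Slc17a7 against -0.57 for Snap25 and -0.60 for Gad1, and 2 markers were higher and 3 lower without overlap. The summed values of 10 astrocyte markers were 961 to 1069 in Ctrl-dCas9A and 702 to 718 in Kcna1-dCas9A, with Aqp4, Aldoc and Sox9 past the threshold. Of the 10, 6 were lower and 0 higher without overlap, and S100b had a log2 fold change of 0.32. The sums of 6 detected microglia markers were 22 to 25 and 53 to 72, with C1qa past the threshold and Tmem119 and P2ry12 at 0 throughout. Of the 6, 4 were higher and 0 lower without overlap, and C1qc had a log2 fold change of -0.195. For 7 detected oligodendrocyte lineage markers the sums were 66 to 98 and 40 to 44, with Olig2 past the threshold. Of the 7, 4 were lower without overlap and 1 higher, Mbp, at 3, 3 and 2 against 7, 4 and 7. For 8 cell cycle genes the sums were 121 to 126 and 71 to 75. In such bulk libraries, fewer cells of a type and less RNA per cell cannot be told apart, and the part of these shifts in the results below was not tested.

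The members were mostly low. A mean from 5 to under 10 was found for 116 members, 95 had a mean from 10 to under 50, and 20 had a mean of 50 or above. Gm11942, a pseudogene on chromosome 4, was far above the others at 967, 1091 and 1393 in Ctrl-dCas9A and 1405, 1742 and 1695 in Kcna1-dCas9A. Together the members made up 0.557 to 0.629% of each Ctrl-dCas9A library and 0.690 to 0.807% of each Kcna1-dCas9A library. Their summed values were 5869, 5564 and 6283 in the former and 7172, 6900 and 8060 in the latter, so that the groups did not overlap and their means differed 1.25-fold. Without Gm11942 the sums were 4902, 4473 and 4890 against 5767, 5158 and 6365.

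The limit at a mean of 5 runs through a continuum of values. Just inside it, Gm6166 had 2, 5 and 7 in Ctrl-dCas9A against 6, 7 and 3 in Kcna1-dCas9A. Gm6394 had 6, 6 and 2 against 4, 3 and 9, and Gm8420 had 4, 5 and 8 against 5, 6 and 2. Just outside it, with a mean of 4.83, Gm11722 had 3, 0 and 4 against 9, 3 and 10. Gm13423 had 3, 3 and 6 against 7, 5 and 5, and Gm13498 had 4, 5 and 5 against 6, 6 and 3. The groups overlapped for each of these 6 genes. The mean over all 6 libraries also admits genes that are low in 1 group. The Ctrl-dCas9A mean was under 5 for 56 members and the Kcna1-dCas9A mean was under 5 for 9, while both means reached 5 in 166. A member of the first kind had to be higher in Kcna1-dCas9A to be included, and the counts over all members describe what the limit admitted.

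Among the 231 members, 21 passed the threshold, 18 with higher and 3 with lower values in Kcna1-dCas9A. Over all 19504 genes tested, 1.16% passed and, at a mean of at least 5, 2.01%. By direction, 0.349% of all genes passed with higher and 0.81% with lower values, and of the 9751 genes with a mean of at least 5 the shares were 0.451% and 1.56%. The limit fixed the direction of 13 of the 18, whose Ctrl-dCas9A mean was under 5, and of Gm44509 and Gm23153 among the 3. Where both group means reached 5, 5 of 166 members passed with higher and 1 with lower values. The direction of the calls over all genes depended on the scaling, from 68 higher and 158 lower as deposited to 963 and 758 with median-of-ratios and 1226 and 832 with upper-quartile scaling, when 74 and 87 members passed. The adjusted p of 50 further members lay between 0.05 and 0.1, 40 of them with higher values. These calls rested on all 6 libraries. When any 1 library other than Ctrl-dCas9A replicate 3 was left out, 0 members and 0 genes in all passed in limma. The members at an unadjusted p under 0.05 then numbered 81 to 103, against 112 with all libraries, and the genes 3332 to 3853 against 4529. Without Ctrl-dCas9A replicate 3, 67 members passed, 58 of them with higher values, as did 14.2% of the 19122 genes tested.

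**Figure D1:**
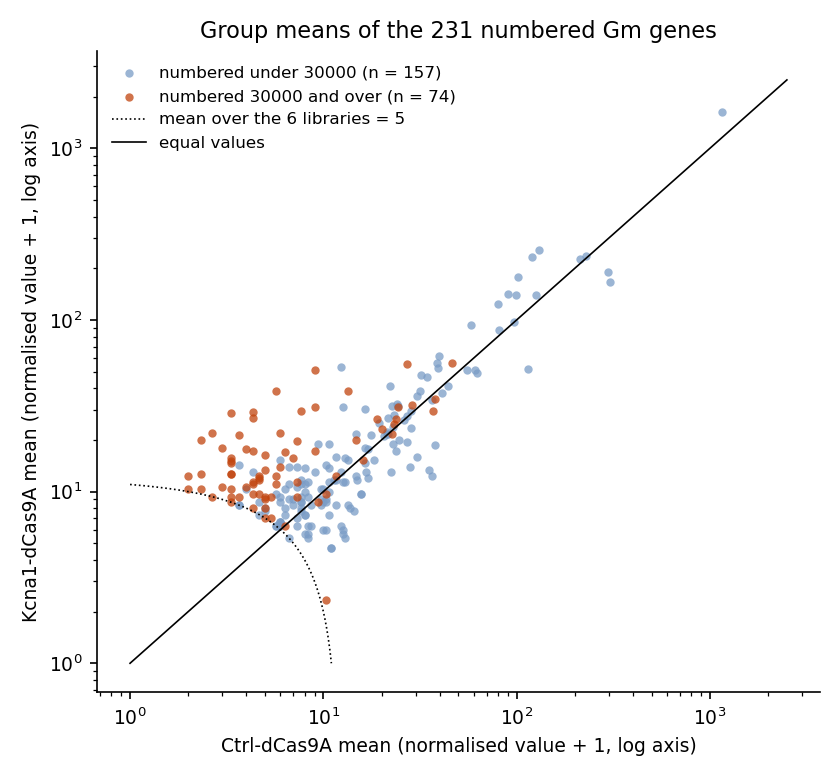
Mean normalised value plus 1 in Ctrl-dCas9A (horizontal, log axis) and in Kcna1-dCas9A (vertical, log axis) for each of the 231 members, in red for numbers of 30000 and over. The dotted curve is the limit at a mean of 5 over the 6 libraries, and the red points lie mostly above the line of equal values, near the left end of that curve.

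The 3 libraries of each group did not overlap for 110 members, 85 with higher and 25 with lower values in Kcna1-dCas9A. These were 36.8% and 10.8% of the members, against 8.98% and 13.3% of all genes tested and 14.4% and 23.1% of genes with a mean of at least 5. The median log2 fold change of the members was 0.31, that of all genes tested was -0.02, and that of genes with a mean of at least 5 was -0.07. For the 166 members with both group means at 5 or above, the counts were 41 higher and 19 lower without overlap, and the median was 0.12.

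The members differed by their number. The 74 members numbered 30000 and over, a class merged from adjoining bands after their values were seen, included 52 with higher and 1 with lower values without overlap, and their median log2 fold change was 1.36. The 157 members with lower numbers included 33 and 24, with a median of 0.10. The threshold was passed by 16 members with higher and 1 with lower values in the first class and by 2 and 2 in the second. Summed values of the first class were 553, 512 and 687 in Ctrl-dCas9A and 1299, 1080 and 1371 in Kcna1-dCas9A, a 2.14-fold difference in means. Those of the second class were 5316, 5052 and 5596 against 5873, 5820 and 6689, a 1.15-fold difference. Number and annotation went together, since 70 of the 74 were among the 107 members without a RefSeq match. These 107 had a median log2 fold change of 0.94, and the 107 direct matches one of 0.14. The limit weighed on the classes unequally, since the Ctrl-dCas9A mean was under 5 for 44 of the 74 but for 12 of the 157. It was also under 5 for 12 of the 16 that passed with higher values. Where both group means reached 5, 29 members of the first class remained, 15 of them higher and 0 lower without overlap, with 4 and 0 past the threshold and a median of 0.44. The 137 of the second class had 26 and 19, with 1 and 1 past the threshold and a median of 0.07.

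**Figure D2:**
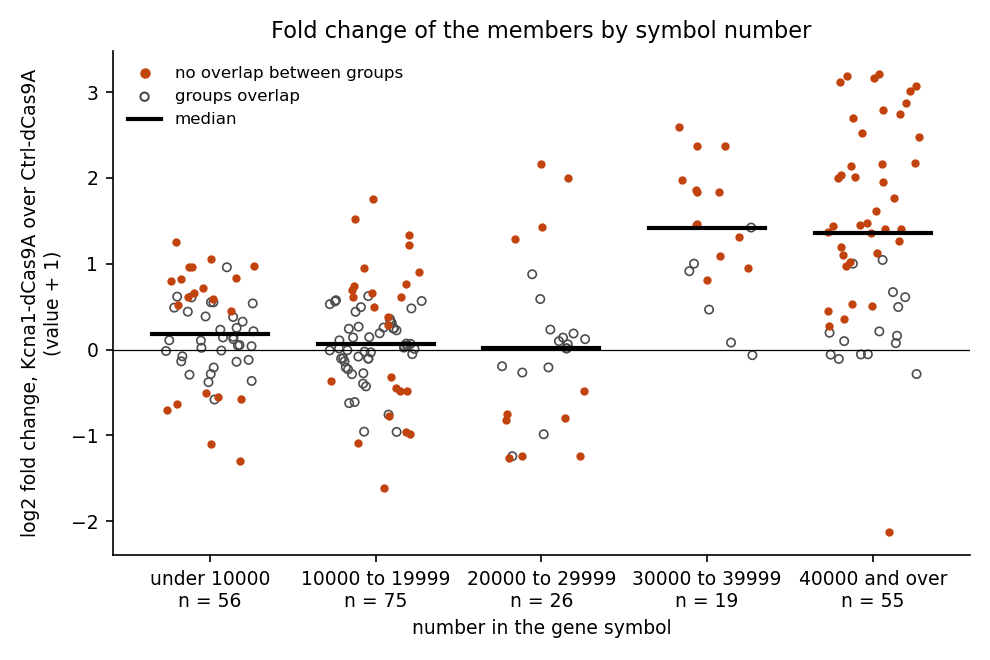
Log2 fold change of each member, Kcna1-dCas9A over Ctrl-dCas9A, on the log2(value + 1) scale, by the number in its symbol. Bars are medians and filled points are members whose groups did not overlap: the medians were 0.18, 0.07 and 0.01 in the bands under 30000 and 1.42 and 1.36 in the bands above.

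The numbered Gm genes below the limit were also divided by number. With a mean from 1 to under 5 there were 416 genes numbered 30000 and over. Of these, 107 were higher and 0 lower without overlap, 15 passed the threshold with higher values, and the median log2 fold change was 0.77. There were 423 such genes with lower numbers, of which 33 were higher and 17 lower without overlap and 3 and 1 passed the threshold, with a median of 0.14. Over all genes in this range of means, 6.18% were higher and 7.01% lower without overlap, 0.623% and 0.156% passed the threshold, and the median was 0. Other provisional names were examined at a mean of at least 5, where 14.4% of all genes were higher and 23.1% lower without overlap. Of 253 genes named as RIKEN clones, 51 were higher and 43 lower, with a median of 0.09. Of 27 genes named by a GenBank or BAC clone, 11 were higher and 0 lower, with a median of 0.75. Of 33 genes named as expressed sequences, 3 were higher and 4 lower, with a median of 0.03. Differences between these families were not tested.

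The members with the largest log2 fold changes past the threshold were Gm45176 and Gm45182, which are listed within Dlg2 on chromosome 7. Gm45176 had 2, 1 and 4 in the control libraries against 37, 20 and 26 after activation. Its fold change on the log2 scale was 3.16 ± 0.38 (SE, n = 3 per group). Gm45182 was at 1, 1 and 2 against 18, 16 and 23, or 3.11 ± 0.26 on that scale (limma, adjusted p = 0.034). Adding 1 to each value before taking logs understates the change of genes this low. The members Gm45179 (4, 2 and 4 against 16, 19 and 14) and Gm45159 (1, 3 and 3 against 18, 10 and 13) also lay within Dlg2 and also passed the threshold. All 4 members had a Ctrl-dCas9A mean under 5, so that the limit fixed their direction. They had to be higher in Kcna1-dCas9A to be included, which was not asked of Dlg2. Dlg2 encodes a scaffold protein of the postsynaptic density that binds glutamate receptors and potassium channels. Its own values were 96, 99 and 106 in Ctrl-dCas9A and 112, 89 and 94 in Kcna1-dCas9A, a difference of -0.03 ± 0.11 on the log2 scale. Summed over the 4 members, the values were 8, 7 and 13 against 89, 65 and 76.

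Most members numbered 30000 and over could be placed only by their rows in the files, because 70 of the 74 matched no RefSeq gene. Rows followed genome order: starts increased between neighbouring rows of a chromosome in 98.8% of 34666 cases. When this order placed a numbered Gm gene of known position inside a named gene, its start was truly there in 894 of 902 cases. By these means, 22 of the 74 lay within a named gene and 41 lay either within it or in the gap past its end, with the strand unknown. The check of known positions covered only placements within a gene. A member said to be at a gene was placed in either of these ways. At the 5 protein-coding genes with at least 2 such members, the Ctrl-dCas9A mean was under 5 for 15 of 18 members, all but Gm42992, Gm42993 and Gm43322. These 15 had to be higher in Kcna1-dCas9A to be included, which was not asked of the genes they were placed at. Of the 63 members placed at named genes, 46 were higher and 1 lower without overlap. The 10 placed between genes included 6 higher and 0 lower. Among genes with a mean of at least 5, 14.4% were higher and 23.1% lower.

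**Figure D3:**
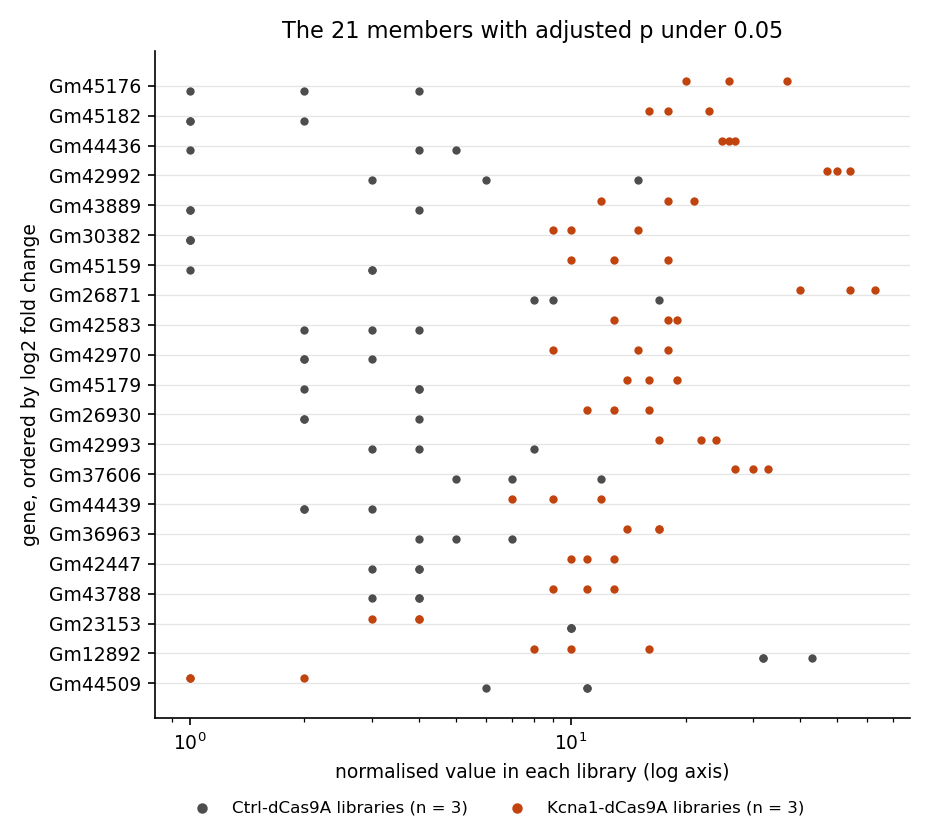
Normalised value in each library (log axis) of the 21 members that passed the threshold, ordered by log2 fold change, with coincident points where libraries share a value. Grey and red points do not overlap for any of the 21, and the 3 members at the bottom are lower in Kcna1-dCas9A.

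Auts2, a regulator of neuronal transcription and cytoskeleton, had more members than any other gene. Gm42588 lay within it, and Gm42440, Gm42991, Gm42992, Gm42993 and Gm42989 lay within it or in the gap that follows it (chr5:131437333-132543220, GRCm38.p6). The 6 summed to 18, 7 and 44 in Ctrl-dCas9A and 163, 137 and 169 in Kcna1-dCas9A, with no overlap between groups for any of the 6. Gm42992 was the highest, at 6, 3 and 15 against 50, 47 and 54, and it passed the threshold together with Gm42993 at 4, 3 and 8 against 24, 17 and 22. Auts2 itself was at 120, 115 and 120 against 141, 111 and 128, so the groups overlapped.

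At Ank2, which encodes an ankyrin that links membrane proteins to the cytoskeleton, were 3 members, Gm43322, Gm42972 and Gm42970. Their sums were 9, 6 and 15 in Ctrl-dCas9A and 51, 43 and 61 in Kcna1-dCas9A, while Ank2 was at 182, 217 and 241 against 278, 224 and 275. Gm42970 passed the threshold. At Ctnna2, a catenin of neuronal cadherin junctions, were also 3 members, with sums of 11, 6 and 13 against 47, 32 and 60 and its own values at 156, 176 and 227 against 254, 215 and 198. None of the 3 passed the threshold, although the groups overlapped for none. At Chl1, a neural cell adhesion molecule, were Gm44439 and Gm44436. The sums of this pair were 3, 6 and 8 against 35, 32 and 39, and both passed the threshold. Chl1 was itself higher in all 3 Kcna1-dCas9A libraries, at 1807, 1864 and 2362 against 2823, 2832 and 2527, with a log2 fold change of 0.45 ± 0.13 (limma, adjusted p = 0.091).

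**Figure D4:**
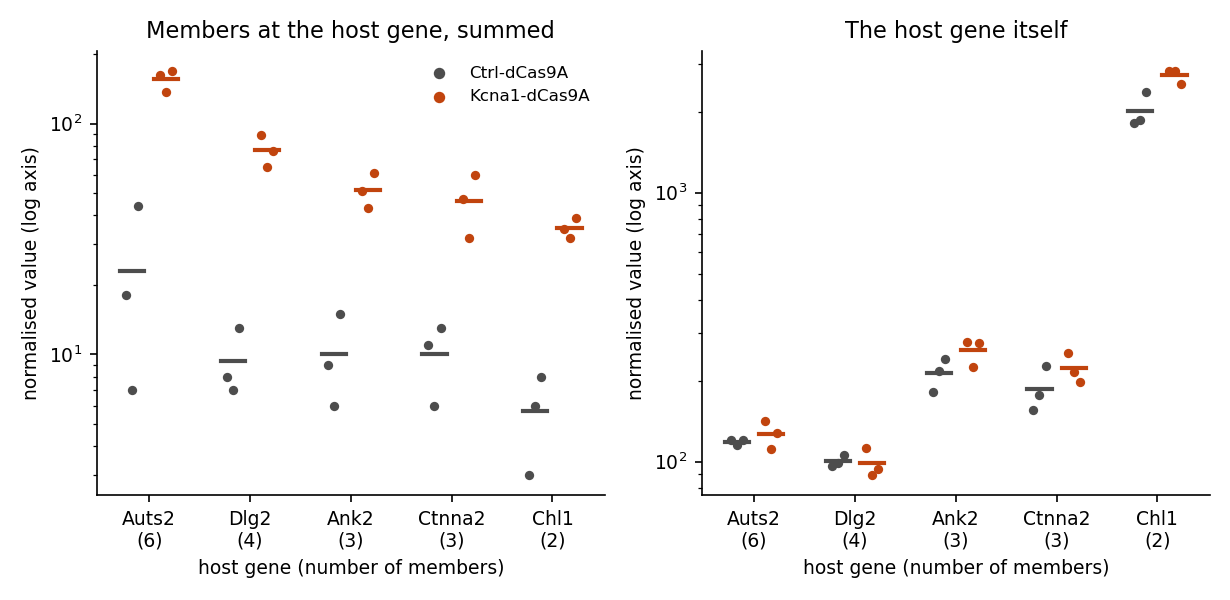
Normalised values in each library (log axes) of the members at the 5 protein-coding genes with at least 2 members, summed per gene (left), and of those genes themselves (right). Bars are means of 3 libraries: the summed members differed 4.63- to 8.21-fold between groups, 15 of the 18 members reached the limit through Kcna1-dCas9A alone, and the groups of Auts2, Dlg2, Ank2 and Ctnna2 overlapped.

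Single members past the threshold were placed at 4 further protein-coding genes, each with a Ctrl-dCas9A mean under 5 and so higher in Kcna1-dCas9A by the rule of selection. Gm42583 (2, 3 and 4 in Ctrl-dCas9A, 19, 13 and 18 in Kcna1-dCas9A) was placed at Kcnd2, the pore-forming subunit of a transient A-type potassium channel. Gm43889 (1, 1 and 4 against 21, 12 and 18) lay within Cntnap2, a neurexin family protein that clusters potassium channels beside the node of Ranvier. Gm42447 (3, 4 and 4 against 13, 10 and 11) was placed at Pclo, a scaffold of the presynaptic active zone. Gm43788 (3, 4 and 4 against 11, 13 and 9) was placed at Med13l, a subunit of the Mediator kinase module. Kcnd2 was at 108, 106 and 124 against 154, 144 and 109 and Cntnap2 at 75, 76 and 70 against 62, 60 and 77, so that the groups overlapped for both. Med13l also overlapped, at 212, 218 and 251 against 272, 215 and 219. Pclo was higher in each Kcna1-dCas9A library, at 58, 75 and 111 against 148, 119 and 127, but did not pass the threshold (limma, adjusted p = 0.11).

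Across the 46 detected genes that held or preceded the members numbered 30000 and over, 0 passed the threshold in limma (14 at an unadjusted p under 0.05). Without overlap, 3 were higher and 11 lower (6.52% and 23.9%), against 8.98% and 13.3% of all genes tested. Of genes with a mean of at least 5, 14.4% were higher and 23.1% lower. The median log2 fold change of the 46 was -0.03. For the 31 of these 46 with members that were higher without overlap, the median was also -0.03. The difference between members and these genes was not tested, and only the members were selected on their values.

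The members were also grouped by the span of the gene at which they were placed, in bins chosen after the values were seen. At genes of 500 kb and over, 19 of 19 members were higher without overlap, with a median log2 fold change of 2.48 and summed values of 50, 33 and 96 in Ctrl-dCas9A against 404, 314 and 411 in Kcna1-dCas9A. These 19 members shared 7 genes, namely Adgrb3, Ank2, Auts2, Cntnap2, Ctnna2, Dlg2 and Kcnd2. The Ctrl-dCas9A mean was under 5 for 16 of them, so that their direction was set by the limit, and the 3 others were Gm43322, Gm42992 and Gm42993. At genes of 100 to under 500 kb, 11 of 16 were higher and 0 lower, with a median of 1.38. At genes under 100 kb, 16 of 28 were higher and 1 lower, with a median of 0.99. Of all genes with a mean of at least 5, 14.4% were higher and 23.1% lower without overlap. The Ctrl-dCas9A mean was under 5 for 13 of the 16 and 10 of the 28. Of the members with both means at 5 or above, 0 of 3 in the middle bin and 9 of 17 in the lowest were higher without overlap. For the 9 members placed wholly within a gene of 500 kb and over, the sums were 20, 19 and 38 against 174, 135 and 181, and the Ctrl-dCas9A mean was under 5 for 8. For the 13 wholly within a smaller gene they were 162, 146 and 128 against 193, 160 and 210, with 7 higher and 1 lower and a Ctrl-dCas9A mean under 5 for 5. Of the 50 members with lower numbers at named genes, 10 were higher and 12 lower, with a median of 0.01. At genes of 500 kb and over there were 3 of these, Gm8319 (4, 6 and 9 against 16, 10 and 13), Gm10115 (3, 1 and 6 against 14, 10 and 12) and Gm19815 (5, 5 and 9 against 5, 6 and 7), and the last overlapped. Other genes with a mean of at least 5 that RefSeq places within a protein-coding gene were 25 higher and 28 lower of 122. Those within a gene of 500 kb and over were 3 higher and 6 lower of 10, with a median of -0.56. RIKEN clones within a protein-coding gene of any span were 6 higher and 1 lower of 11, with a median of 0.52, and those within a gene of 500 kb and over were 6330415B21Rik in Ctnna2 (Ctrl-dCas9A mean 3.33) and 5730480H06Rik in Kcnip4, both higher.

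**Figure D5:**
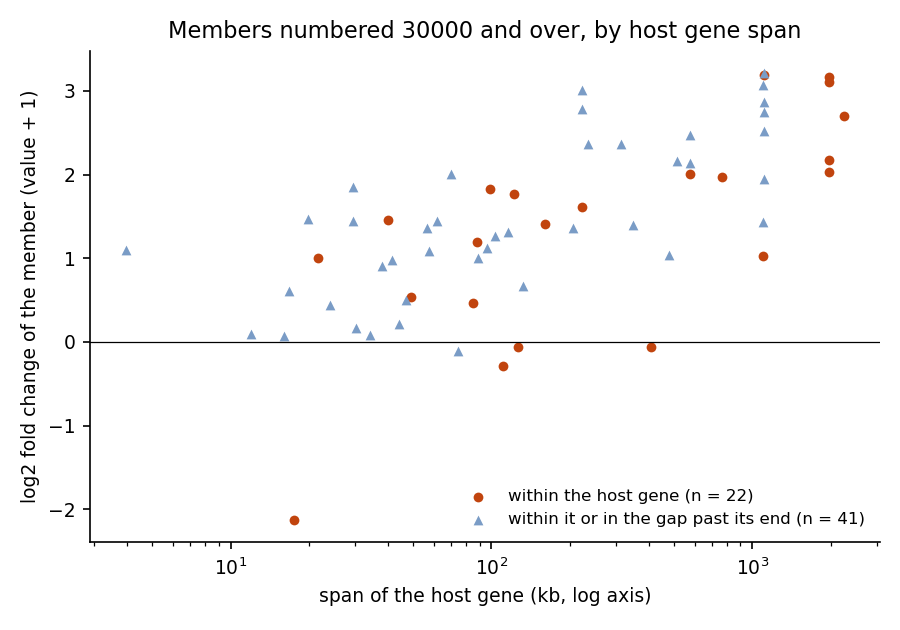
Log2 fold change of the 63 placed members numbered 30000 and over against the span, in kb (log axis), of the gene at which each was placed. Circles are members wholly within that gene and triangles members within it or in the gap past its end. Of the 19 points beyond 500 kb, 16 had a Ctrl-dCas9A mean under 5, and the lowest point is Gm44509.

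Some members were listed beside microRNA genes, which was noticed after their values were seen. Within 3 rows of a microRNA gene were 37 of the 231 members, of which 15 were higher and 3 lower without overlap and 4 passed the threshold. The Ctrl-dCas9A mean was under 5 for 6 of the 37, and among the 30 with both means at 5 or above the counts were 10 and 2, with a median of 0.32. The share of higher members among the 37 was near that of all members, of which 36.8% were higher and 10.8% lower. Of genes with a mean of at least 5, 14.4% were higher and 23.1% lower without overlap, and 2.01% passed the threshold. The 4 members that passed stood at 3 microRNA loci. Gm26871, a lncRNA of RefSeq (chr3:118498307-118540533), is in the row before Mir137, a brain-enriched microRNA. By RefSeq, Mir137 (chr3:118433857-118433929) precedes Gm26871, so this pair of rows runs against genome order. It was at 9, 8 and 17 in Ctrl-dCas9A and 54, 40 and 63 in Kcna1-dCas9A, a difference of 2.16 ± 0.30 on the log2 scale. Gm26930 is 3 rows from Mir181a-1 and was at 2, 2 and 4 against 13, 11 and 16. Gm36963 and Gm37606 are listed within 3 rows of Mir99a, which is followed by Mirlet7c-1 on chromosome 16, and were at 7, 4 and 5 against 17, 14 and 17 and at 5, 7 and 12 against 30, 27 and 33. Members as close to these microRNAs did not all pass. Gm9916, 2 rows from Mir137, overlapped at 3, 6 and 13 against 8, 13 and 10, and Gm37534, in the row before Mir181a-1, was at 3, 2 and 7 against 15, 15 and 16 (limma, adjusted p = 0.055). The 4 microRNA genes named here were at 0 in every library.

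RefSeq lncRNAs with their own numbered symbol numbered 18 among the members, of which 6 were higher and 0 lower without overlap, against 14.4% and 23.1% of genes with a mean of at least 5. Their median log2 fold change was 0.44. Gm30382, whose promoter is shown above, rose from 1 in each Ctrl-dCas9A library to 10, 9 and 15, a log2 fold change of 2.59 ± 0.26 (limma, adjusted p = 0.042). With a Ctrl-dCas9A mean under 5, Gm30382 had to be higher in Kcna1-dCas9A to be included. It was one of 2 lncRNA members past the threshold, the other being Gm26871. Gm15834 was at 10, 8 and 17 against 25, 28 and 37, and Gm5914 at 19, 13 and 31 against 40, 33 and 47. Gm15728 (6, 6 and 8 against 11, 10 and 11) and Gm15706 (5, 4 and 5 against 7, 10 and 9) were closer together. None of these last 4 passed the threshold, with limma adjusted p from 0.056 to 0.11. Gm15706 also had a Ctrl-dCas9A mean under 5 and so had to be higher to be included.

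Of the 77 pseudogene members matched by their own symbol, 14 were higher and 8 lower without overlap. These were 18.2% and 10.4%, against 14.4% and 23.1% of genes with a mean of at least 5. Of the 77, 1 passed the threshold, and their median log2 fold change was 0.12. Among the most abundant, Gm2000 was at 132, 105 and 150 in Ctrl-dCas9A and 253, 194 and 317 in Kcna1-dCas9A, and Gm4997 at 85, 99 and 118 against 168, 147 and 213. Gm8292 went the other way, at 263, 268 and 361 against 213, 198 and 160, and Gm29228 overlapped at 166, 189 and 324 against 234, 235 and 238. For Gm11942 the log2 fold change was 0.50 ± 0.16 (limma, adjusted p = 0.11). None of these abundant pseudogenes passed the threshold. A processed pseudogene can share reads with the gene it was copied from, so such values are uncertain.

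RefSeq now names 8 members as copies of a gene in the files, and copy and parent had opposite signs in 5 pairs and the same sign in 3. In each of the 5 the groups of the copy overlapped. Gm8430, now Rps27a-ps3, was at 27, 19 and 24 against 29, 26 and 37, whereas Rps27a, a ribosomal protein fused to ubiquitin, was at 134, 102 and 127 against 67, 67 and 48. Gm15920, now Ndufa12-ps, was at 23, 23 and 15 against 18, 27 and 19, whereas Ndufa12, a subunit of respiratory complex I, fell from 190, 200 and 155 to 112, 86 and 96 (limma, adjusted p = 0.0496). In contrast, Gm11361, now Rps18-ps5, was at 6, 9 and 6 against 4, 5 and 5, with Rps18, a protein of the small ribosomal subunit, falling from 74, 82 and 62 to 44, 42 and 39.

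The 12 protein-coding members matched by their own symbol were 4 higher and 1 lower without overlap (against 14.4% and 23.1% of genes with a mean of at least 5). Of the 12, 0 passed the threshold in limma (4 at an unadjusted p under 0.05), with a median log2 fold change of 0.12. Gm15501 was the highest of the 4, at 119, 105 and 133 against 227, 189 and 282, a log2 fold change of 0.95 ± 0.16 (limma, adjusted p = 0.051). Gm13889 was lower, at 20, 24 and 20 against 11, 12 and 13. Gm1673 was abundant and overlapped, at 226, 239 and 168 against 214, 206 and 256. The 17 members matched by a synonym, of any type, are not in these counts. They were 2 higher and 4 lower without overlap, with a median of 0.05. Of their protein-coding genes, Gm996, now Ajm1, was higher at 6, 5 and 6 against 9, 12 and 9. Gm561, now Smim26, was lower at 14, 12 and 10 against 5, 5 and 3.

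Of the 3 members that passed the threshold with lower values, Gm44509 and Gm23153 had a Kcna1-dCas9A mean under 5 and so had to be lower to be included. Gm44509, listed within A230056P14Rik next to Nipa1, fell from 11, 11 and 6 to 2, 1 and 1, with a log2 fold change of -2.13 ± 0.32. It was the 1 member numbered 30000 and over that was lower without overlap. Gm12892, a pseudogene on chromosome 4, fell from 43, 32 and 32 to 16, 10 and 8, or by 1.61 on that scale. Gm23153, placed between genes on chromosome 1, fell from 10 in each library to 4, 4 and 3. Gm26917, listed 2 rows from Gm42418 and next to the ribosomal RNA pseudogene Rn18s-rs5, was at 389, 308 and 210 against 179, 166 and 151 and did not pass the threshold (limma, adjusted p = 0.076). Gm42418 itself overlapped, at 190657, 194446 and 162815 against 162941, 202207 and 153031.

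Within each group the libraries did not stand equally. For the 52 members numbered 30000 and over that were higher in Kcna1-dCas9A, Ctrl-dCas9A replicate 3 was the highest library of its group in 34, against 5 and 1 for replicates 1 and 2. Kcna1-dCas9A replicate 2 was the lowest of its group in 31, against 6 for each of the others. Lists of nuclear-retained lncRNAs showed the same order. Meg3, a lncRNA of an imprinted cluster, was at 1612, 1131 and 3150 in Ctrl-dCas9A and 4922, 4187 and 4748 in Kcna1-dCas9A. The 8 genes of that list summed to 4734, 2829 and 8117 against 9807, 7909 and 8975, with 6 higher without overlap and Kcnq1ot1 past the threshold. Over 20 mitochondrial transcripts the sums were 28506, 27111 and 27288 against 22469, 18662 and 23223. The part of either list in the values of the members was not tested.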

How the data were processed

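Libraries of polyadenylated RNA from primary mouse neurons were compared, 6 in all and 3 per group, mapped by the sample labels. The authors deposited a score per gene for each library, always a whole number, in files with no header line. Library totals were nearly equal, so it was taken as an abundance normalised to a fixed total and rounded by the authors, which neither the labels nor the paper state, and single reads could not be recovered from it. The submitters' processing notes name STAR 2.7, featureCounts, DESeq2 and mm10, whereas the study's methods name Bowtie2 and NCBI37/mm9. Depth per library is therefore unknown, no interval is given, and a listed 0 may be a rounded small value.

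All 19504 genes above 0 in at least 1 library were fitted with limma 3.58.1 in R 4.3.3 (lmFit, eBayes with an intensity trend) on log2(value + 1), with a single term for group, and p was adjusted over all of them by Benjamini-Hochberg. The design had planned for values that were not counts in this way. Scripts were tested on simulated data. Tables were made with Python 3.11.15. Values were also compared by whether the 3 libraries of each group overlapped. Members were matched by symbol to RefSeq of GRCm38.p6 and otherwise placed between the nearest rows with a RefSeq position. Promoters came from the RefSeq table, with 1 window per gene.

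Named in the text were members with adjusted p under 0.05, the 8 highest members, 3 members on either side of the limit, Kcna1, Gm42418 and the genes holding, beside or parental to them. Other named members stand as examples of their class and were chosen after their values were seen. Members, lists and tests were chosen with earlier results of these data known. Marker lists of neurons, astrocytes, microglia, oligodendrocyte lineage, cell cycle, nuclear-retained lncRNAs and mitochondrial transcripts are given beside the results, and 8 vascular and meningeal markers summed to 6 to 16 in each library. Alternatives were another pseudocount, low-value filters, variance models, scalings, the replicate block, each library left out and other limits on the mean.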

Additional observations from a re-analysis of the deposited data

How the results depend on the processing

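Against 21 members and 226 genes in all, the threshold was passed by 66 and 1543 with a mean of at least 1 required, 13 and 201 without the intensity trend, 96 and 2884 with robust variances, 74 and 1721 with median-of-ratios scaling, 87 and 2058 with upper-quartile scaling, 72 and 1808 without Gm42418, and 30 and 627 with a pseudocount of 0.1. The members numbered 30000 and over, 17 at first, gave 43, 10, 51, 45, 48, 44 and 20. Calls with higher values were 30.1% of all calls, against 56.0% with median-of-ratios and 59.6% with upper-quartile scaling, and without the intensity trend they were 117 of 201, so that for all genes the balance of calls turned. When the libraries were omitted one by one, the counts ran from 0 to 67 members, 0 to 2711 genes and 0 to 38 members numbered 30000 and over. Kcna1 then had log2 fold changes of 1.73 to 1.99, with limma adjusted p from 0.019 to 0.14. Only the omission of Ctrl-dCas9A replicate 3 left any call. All 21 members kept their sign under each of these settings.

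With the replicate number as a block, 0 members, 0 of those numbered 30000 and over and 0 genes passed in limma, although 111, 54 and 4326 had an unadjusted p under 0.05, and Kcna1 kept its log2 fold change of 1.83 with an adjusted p of 0.11. Same-numbered libraries correlated at 0.013, 0.089 and 0.13 in their deviations from the group means, and neither the labels nor the methods pair the cultures, so the samples share only a number. Not every library correlated best with its own number.

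A limit of 3 on the mean gave 32 calls among 384 members and a median log2 fold change of 0.41. A limit of 10 gave 9 calls, 52 members without overlap and a median of 0.195 among 115 members. A mean of 5 in each group gave 6 calls, 60 members without overlap and a median of 0.12. The median was 0.42 with upper-quartile scaling and 0.29 to 0.39 with each library left out. Signs reversed with a library left out for members near 0: Gm29228 ran from -0.0704 (without Ctrl-dCas9A replicate 1) to 0.4099, Gm1673 from -0.051 (Ctrl-dCas9A replicate 3) to 0.2021, Gm6166 from -0.19 (Ctrl-dCas9A replicate 1) to 0.5175, Gm6394 from -0.2594 (Ctrl-dCas9A replicate 3, with -0.2389 for Kcna1-dCas9A replicate 3) to 0.422, and Gm8420 from -0.6073 to 0.0039 (Kcna1-dCas9A replicate 3). The cause of these shifts was not tested.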
